A study of Mus musculus with 6 samples.

Results

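Blood vessels and lymph vessels of inguinal white adipose tissue (iWAT) were followed here through 38 genes: 22 pan-endothelial genes, 3 lymphatic genes (Prox1, Lyve1 and Flt4), 6 angiogenic factors, 6 vessel receptor and Notch-ephrin genes, and Pdpn. The genes were chosen by symbol, and a symbol with more than 1 row was represented by its most counted row. Of the 38 genes, 29 had a row in the deposited table of 37024 rows and 24 passed the filter on low counts that left 9872 rows. The libraries came from bulk RNA-Seq of whole iWAT of C57BL/6 mice fed a Western diet for 12 weeks, with 3 mice in each group. Lexis-AdKO mice were homozygous for a floxed allele of Lexis, a long noncoding RNA, and carried adiponectin-cre. Lexis-AdWT littermates had the same floxed alleles without Cre, so both groups carried Lexis fl/fl. The sex and age of the mice behind these libraries are not given in the sources used here. The adiponectin promoter drives Cre in adipocytes, and endothelial cells were not the targeted cell type.

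Endothelial cells line every vessel and are joined by VE-cadherin (Cdh5) and claudin 5 (Cldn5). Blood endothelium grows under VEGF and angiopoietin signals, read by the receptors Flt1, Kdr, Tie1 and Tek, while Notch signaling through Dll4 restrains sprouting. Lymphatic endothelium is specified by the transcription factor Prox1, displays the hyaluronan receptor Lyve1, and depends on Vegfc acting through Flt4 (VEGFR3). In adipose tissue a dense capillary bed supplies each adipocyte with fatty acids and oxygen.

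The targeted locus did not have lower counts in the libraries labelled AdKO. The row of 4930412L05Rik, the lincRNA gene in which the Lexis RNA FISH probes of the study match the mm9 genome, held 21, 11 and 13 counts under the label AdKO, above the 8, 9 and 8 counts under AdWT. These are few counts. The study reports by qRT-PCR that Lexis expression was lost in adipose tissues of Cre-carrying mice, without saying that these libraries came from the same mice. The groups are named by their labels throughout. The libraries held 14470542 to 17882713 counts, so that 3 counts corresponded to 0.179 to 0.206 CPM, the count per 1e6 counts of a library. Over all rows tested, edgeR's quasi-likelihood test called 0% at a Benjamini-Hochberg adjusted p under 0.05, 5.73% had an unadjusted p under 0.05, and DESeq2, run on 19554 rows, called 27. Adipocyte markers summed to 41340 to 42010 CPM in AdKO and 46140 to 54600 CPM in AdWT, with 5 of 6 tested lower in AdKO by point estimate, 1 of them, Lep, at an unadjusted p under 0.05. Fabp4 made up most of the adipocyte sum, and Pnpla2 was at 0 in every library. Skeletal muscle markers summed to 4.54 to 6.11 CPM in AdKO against 17.97 to 174 CPM in AdWT, with all 6 tested of 12 (Ckm, Mylpf, Tnnc2, Atp2a1, Tcap and Myh1) lower at an unadjusted p under 0.05 and Tnnt3 and Myh4 at 0 in every library, and their part in the results below was not tested. Lymph node high endothelial venule markers reached at most 0.131 CPM in any library.

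Endothelial identity was plain in all 6 libraries. Scaled by the exon length of each gene, Cdh5 had the highest mean level of the 24 tested genes, 235 CPM per kilobase over the 6 libraries, followed by Plvap (166), Cldn5 (108), the transcription factor Sox18 (76.9), Mmrn2 (51.6), Nos3 (51.1) and Ptprb (49.5). Several defining markers could not be read from this table. Pecam1, Tek, Robo4, Erg, Fli1, Prox1, Pdpn, Angpt1 and Angpt2 had no row under these symbols and were not analysed here. Kdr, the main signaling receptor for VEGF-A, held 2, 1 and 1 counts in AdWT and 0, 1 and 2 in AdKO. Esam, an endothelial adhesion molecule, held 4, 1 and 1 counts in AdWT and 4, 3 and 2 in AdKO. Notch4 held 8, 4 and 8 counts against 4, 5 and 3, and the ephrin receptor Ephb4 held 0 counts in every library.

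These low rows stood beside an abundant endothelial signal, so a low row is not read here as an absent transcript. Among the 29 members with a row, the 8 with a single transcript in GENCODE vM1 had totals over the 6 libraries from 5335 to 87253 counts. Totals under 60 counts were seen in 1 of 11 such members with 2 or 3 transcripts, 2 of 5 with 4 to 9, and 2 of 5 with 10 or more. Over all symbols this order was not seen, with 44.6% of symbols with 4 to 9 transcripts and 50.2% of those with 10 or more under 60 counts, 51.1% of those with 2 or 3, and a larger share of those with a single transcript than of any of these. The counting tool and its annotation are not given in the sources used here.

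The regulatory sequence of 4 members is shown because Flt1 and Tie1 shared their 2 highest libraries, and Flt4 and Dll4 are a receptor and a ligand with an unadjusted p under 0.05, though no call after adjustment, in the last comparison below. Each is the 250 bases before the RefSeq gene start in GRCm38.p6, and capitals mark AGGAAG, a core motif of the ETS factors that bind endothelial promoters, or CTTCCT, the same motif on the opposite strand. They lie at chr5:147726012-147726261 (Flt1, minus strand), chr4:118489850-118490099 (Tie1, minus strand), chr11:49609429-49609678 (Flt4, plus strand) and chr2:119325534-119325783 (Dll4, plus strand).
Flt1: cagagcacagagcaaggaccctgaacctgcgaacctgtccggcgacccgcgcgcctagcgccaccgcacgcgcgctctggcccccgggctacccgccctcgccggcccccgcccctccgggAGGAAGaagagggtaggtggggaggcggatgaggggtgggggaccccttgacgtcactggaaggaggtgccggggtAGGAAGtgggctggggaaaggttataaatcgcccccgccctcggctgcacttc
Tie1: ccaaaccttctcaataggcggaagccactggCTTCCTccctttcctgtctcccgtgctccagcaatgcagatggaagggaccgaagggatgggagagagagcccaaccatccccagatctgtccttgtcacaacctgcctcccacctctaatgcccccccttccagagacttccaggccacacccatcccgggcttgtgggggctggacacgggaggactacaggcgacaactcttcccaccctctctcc
Flt4: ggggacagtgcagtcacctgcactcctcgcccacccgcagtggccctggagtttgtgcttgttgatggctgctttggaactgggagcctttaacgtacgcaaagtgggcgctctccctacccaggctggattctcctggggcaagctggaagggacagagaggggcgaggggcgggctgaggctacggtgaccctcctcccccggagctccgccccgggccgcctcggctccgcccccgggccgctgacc
Dll4: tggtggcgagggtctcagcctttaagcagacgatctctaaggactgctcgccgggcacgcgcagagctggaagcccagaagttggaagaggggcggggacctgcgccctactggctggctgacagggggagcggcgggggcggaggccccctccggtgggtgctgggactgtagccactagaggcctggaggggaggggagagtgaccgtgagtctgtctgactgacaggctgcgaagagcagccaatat
Of the 24 tested members, 12 had an entry in this promoter table, and 5 of these 12 held AGGAAG on either strand, against 29.5% of all 32851 promoters. The other ETS core searched, CCGGAA, was in none of the 12 and in 12.0% of all promoters. The letters TGGGAA, the core bound by the Notch effector RBPJ, were in 2 of the 12 and in 21.6% of all promoters, and the SOX core ACAATG was in none of the 12 and in 10.7% of all promoters. A match describes the letters in this window and is not a measured binding site.

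No vessel gene was called between the labelled groups, where edgeR called 0 of all 9872 rows and DESeq2 27 of 19554. Adjusted p-values of the 24 tested members ran from 0.851 to 0.997 in edgeR's quasi-likelihood test. DESeq2 also called no member, but gave no adjusted p for Emcn and Vwf. A single member, Plvap, had an unadjusted p under 0.05, or 1 of 24 beside 5.73% of all rows, and DESeq2 also gave 1. AdKO and AdWT overlapped in CPM for each of the 24 members, while over all rows AdKO lay wholly above AdWT in 6.16% and wholly below in 5.72%. The 95% confidence interval of the fold change lay within 1.5-fold in either direction for 16 of the 24 and within 2-fold for 21. Emcn, Vwf and Aplnr were the members whose intervals reached past 2-fold. In whole tissue, a change in the number of endothelial cells and a change in RNA per cell cannot be told apart.

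**Figure D1:**
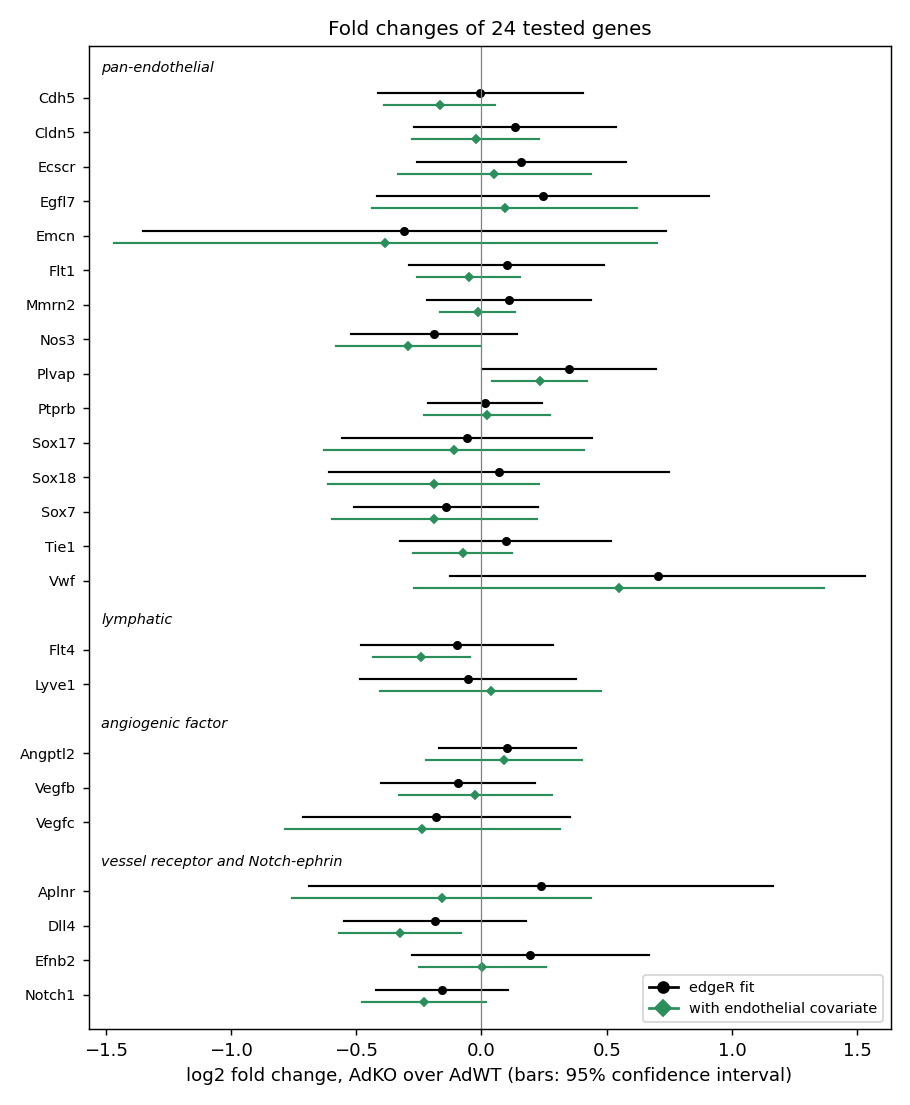
Log2 fold change of AdKO over AdWT (horizontal axis) for the 24 tested genes (vertical axis), grouped by class. Black circles are the edgeR estimates and green diamonds those with an endothelial covariate, each with its 95% confidence interval; the black interval of Plvap alone leaves out 0, and the green intervals of Plvap, Flt4, Nos3 and Dll4 leave out 0.

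Among pan-endothelial genes, 10 of 15 tested were higher and 5 lower in AdKO by point estimate, with a median log2 fold change of 0.10 beside 0.007 over all rows tested. That median was 0.28 without AdWT replicate 1, 0.20 without AdKO replicate 3, 0.020 without AdWT replicate 2, 0.013 without AdKO replicate 2 and -0.019 without AdWT replicate 3, so its direction and size rested on single libraries. Cdh5 (ENSMUSG00000031871.8, mm9 chr8:106625525-106668402, plus strand), the adherens junction cadherin of endothelium, measured 1154, 872 and 788 CPM in AdWT and 943, 1093 and 770 CPM in AdKO. The highest and the lowest library thus came from different groups, and the means were 938 ± 192 and 935 ± 162 CPM (SD, n = 3). The log2 fold change of Cdh5 was -0.00 (SE 0.175, 95% interval -0.41 to 0.41, adjusted p = 0.997 by edgeR).

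Flt1 (chr5:148373180-148537587, minus strand), which binds VEGF-A and limits its action on Kdr, measured 219, 170 and 146 CPM in AdWT and 189, 221 and 164 CPM in AdKO. Its log2 fold change was 0.10 (SE 0.167, interval -0.29 to 0.49). Tie1 (chr4:118143796-118162666, minus strand), the co-receptor of the angiopoietin pathway, measured 124, 87.4 and 87.2 CPM in AdWT and 106, 127 and 87.3 CPM in AdKO. In both receptor genes the first AdWT library and the second AdKO library were the 2 highest. Cldn5 (chr16:18776940-18778353, plus strand), the main claudin of endothelial tight junctions, also had these as its 2 highest libraries, with 176, 128 and 134 CPM in AdWT and 171, 185 and 125 CPM in AdKO.

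Plvap (ENSMUSG00000034845.5, chr8:74021653-74035668, minus strand), which forms the diaphragms of fenestrae and caveolae in capillary endothelium, had the smallest unadjusted p of the members. Its levels were 369, 270 and 244 CPM in AdWT and 368, 394 and 362 CPM in AdKO. The 3 AdKO libraries lay close together, and the first AdWT library reached into their range. The log2 fold change was 0.35 (SE 0.149, interval 0.00 to 0.70), with an unadjusted p of 0.0488 and an adjusted p of 0.851 by edgeR, and an exact permutation test (two-sided) on log2 values gave p = 0.3, where 0.1 is the smallest that 3 against 3 allows. The unadjusted p of Plvap did not stay under 0.05 with RLE scaling, with library size alone or with the rows of a symbol summed, nor when any library other than AdWT replicate 1 was left out.

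The SOXF transcription factors, which direct endothelial and arterial or lymphatic fate, did not shift together. Sox17 measured 5.61 to 8.49 CPM in AdWT and 5.46 to 7.69 CPM in AdKO. Sox7 measured 64.0 to 90.6 CPM in AdWT and 60.8 to 82.8 CPM in AdKO. Sox18 measured 164, 99.7 and 101 CPM in AdWT and 97.5, 183 and 102 CPM in AdKO, so 1 library of each group stood apart from the other 4. Their log2 fold changes were -0.06, -0.14 and 0.07, none past the test.

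Nos3 (ENSMUSG00000028978.6, chr5:23870628-23890292, plus strand), the endothelial nitric oxide synthase, measured 249, 240 and 186 CPM in AdWT and 192, 228 and 171 CPM in AdKO, a log2 fold change of -0.19 (SE 0.141, interval -0.52 to 0.14). Ptprb, the phosphatase that dampens Tie2 and VE-cadherin signaling, was the steadiest member, with 619 to 672 CPM in AdWT and 572 to 705 CPM in AdKO and a highest-to-lowest ratio of 1.23. Mmrn2, an extracellular matrix protein of vessels, measured 170 to 238 CPM in AdWT and 190 to 231 CPM in AdKO. Ecscr, a small endothelial surface protein, measured 5.91 to 7.97 CPM in AdWT and 6.60 to 8.35 CPM in AdKO.

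Vwf, which endothelium and platelets store and release for clotting, rested on few counts. Its row held 14, 8 and 9 counts in AdWT and 20, 15 and 15 in AdKO, a log2 fold change of 0.70 (SE 0.355, interval -0.13 to 1.53, adjusted p = 0.853 by edgeR). Summed platelet markers moved the same way, at 56.7 to 70.0 CPM in AdWT and 79.1 to 96.6 CPM in AdKO. Of 5 platelet markers 4 had a row and 2 were tested, Pf4 and Itga2b, both with an unadjusted p under 0.05, and Pf4 made up most of the sum. The part of platelets in the Vwf value was not tested. Emcn, a sialomucin of venous and capillary endothelium, held 10 to 33 counts over the 6 libraries, and Egfl7, a secreted endothelial factor, held 30 to 55, so that both had wide intervals.

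The members shared a pattern across libraries that did not follow the group labels. AdWT replicate 1 had the highest CPM of its group in 14 of 15 pan-endothelial members, beside 36.1% of all rows tested. AdKO replicate 2 had the highest of its group in 11 of 15, beside 34.7% of all rows. These libraries were the 2 highest of all 6 in 8 of the 15 and in 12 of the 24 members of all classes, beside 11.3% of all rows. A list of other pan-endothelial genes, none of them a member, had these as its 2 highest libraries in 11 of 18 genes, and adipose capillary genes such as Gpihbp1 and Car4 in 5 of 8. The pattern was chosen after the values were seen.

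**Figure D2:**
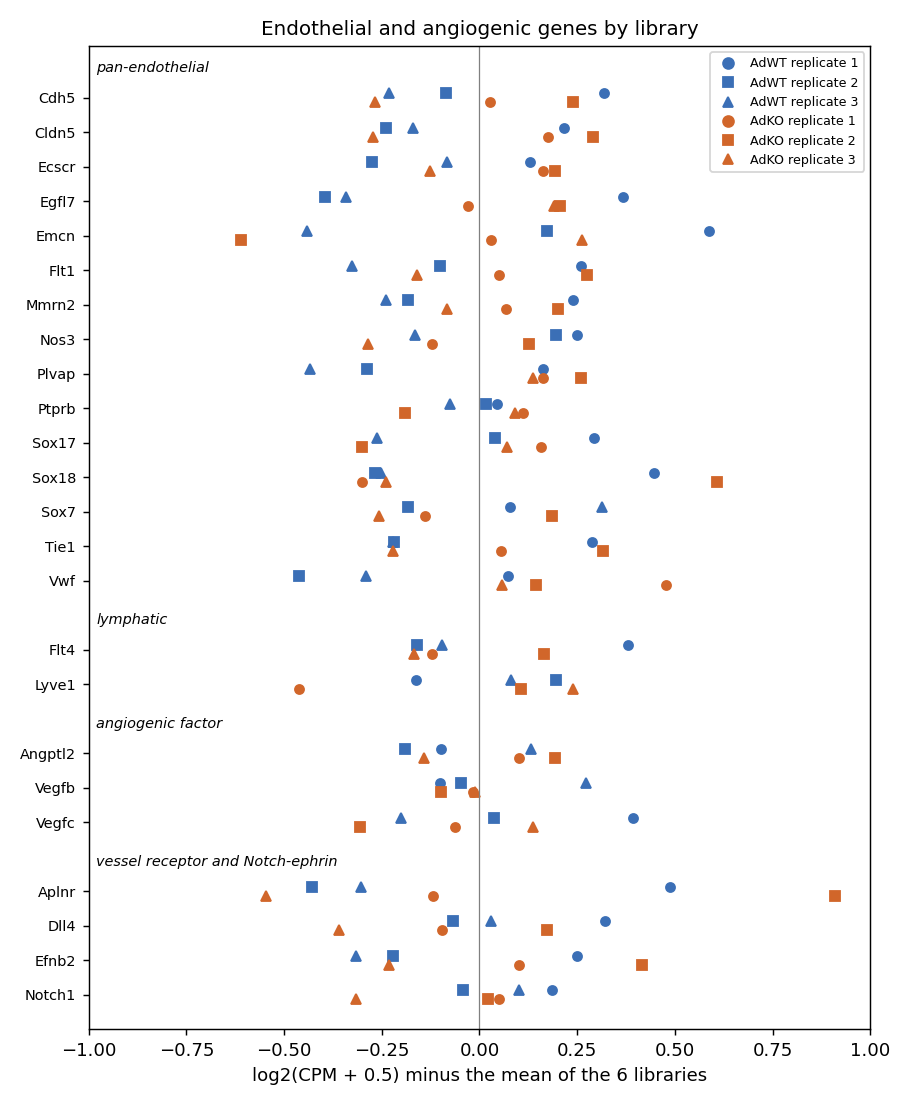
Log2(CPM + 0.5) of each library minus the mean of the 6 libraries (horizontal axis) for the 24 tested genes (vertical axis), with AdWT in blue, AdKO in orange and a marker shape for each replicate. The blue circle (AdWT replicate 1) and the orange square (AdKO replicate 2) lie to the right in many genes, among them Cdh5, Flt1, Tie1 and Efnb2, and no gene separates the colors.

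Averaged over its 15 tested members, the pan-endothelial level on a log2 scale was 5.999, 5.597 and 5.534 in AdWT and 5.81, 5.88 and 5.68 in AdKO. The groups differed by 0.08 (AdKO minus AdWT) with a pooled SD of 0.19 (n = 3 per group), and the span over the 6 libraries was 0.46. The pooled SD within the labelled groups was thus larger than the difference between them. Other cell types also varied within AdWT. Adipocyte markers summed to 46140, 50250 and 54600 CPM in AdWT replicates 1, 2 and 3, the reverse of the endothelial order, while macrophage markers summed to 1643, 1273 and 897 CPM and fibroblast and progenitor markers to 7490, 5749 and 3443 CPM, the same order. In AdKO, adipocyte sums spanned 41340 to 42010 CPM. Macrophage sums spanned 1460 to 1750 CPM and fibroblast sums 5662 to 10310 CPM, both highest in replicate 2. Most of the fibroblast sum was Col3a1, at 7016 CPM in AdWT replicate 1 and 9655 CPM in AdKO replicate 2. These were the 2 highest libraries for 1 of the 4 tested fibroblast and progenitor markers and 2 of the 7 tested macrophage markers. Dpp4 and Pi16 were highest in AdKO replicate 1. Markers of pericytes and smooth muscle, the mural cells of vessels, summed to 519, 319 and 358 CPM in AdWT and 431, 482 and 434 CPM in AdKO. Most of that sum was Notch3, and 1 of the 4 tested mural markers had AdWT replicate 1 and AdKO replicate 2 as its 2 highest libraries. Lymph node B and T cell markers, 4 of 10 tested, summed to 22.6, 11.04 and 7.62 CPM in AdWT and 9.75, 16.97 and 10.7 CPM in AdKO. They were thus also highest in AdWT replicate 1 and AdKO replicate 2, as were 3 of the 4 tested, and Cr2 was at 0 in every library. The part of these cell types in the endothelial levels was not tested.

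**Figure D3:**
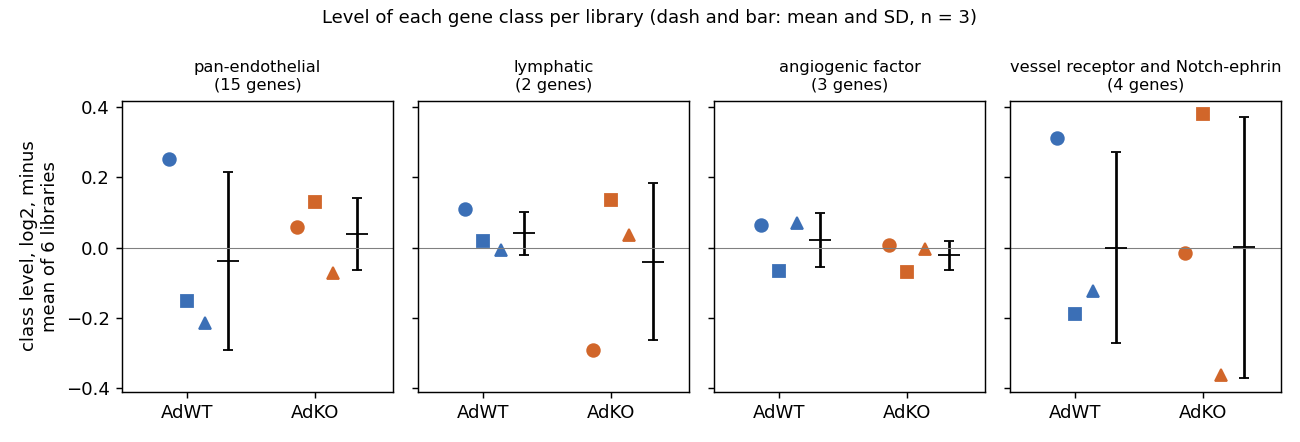
Mean log2(CPM + 0.5) of each gene class per library, minus the mean of the 6 libraries (vertical axis), for AdWT and AdKO (horizontal axis); marker shapes are replicates 1 (circle), 2 (square) and 3 (triangle), and the dash and bar give the mean and SD of 3 libraries. The groups overlap in each of the 4 classes, and the angiogenic factors span the least, 0.14, and the vessel receptor and Notch-ephrin genes the most, 0.74.

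Of the lymphatic genes, Prox1 was not analysed, and the other two did not vary together. Lyve1 (ENSMUSG00000030787.3, chr7:117994121-118006467, minus strand), the hyaluronan receptor of lymphatic endothelium that some tissue macrophages also carry, measured 50.0, 64.2 and 59.2 CPM in AdWT and 40.5, 60.2 and 66.2 CPM in AdKO. AdKO held both the lowest and the highest library. Its log2 fold change was -0.05 (SE 0.185, interval -0.49 to 0.38). Of 12 macrophage markers 7 were tested, 5 higher and 2 lower in AdKO by point estimate, with Emr1 at 0 in every library, and their sum spanned 897 to 1643 CPM in AdWT and 1460 to 1750 CPM in AdKO. Their part in the Lyve1 values was not tested.

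Flt4 (ENSMUSG00000020357.3, chr11:49422765-49466241, plus strand), the VEGF-C receptor, measured 66.1, 45.3 and 47.4 CPM in AdWT and 46.5, 56.9 and 45.1 CPM in AdKO, a log2 fold change of -0.10 (SE 0.164, interval -0.48 to 0.29), which turned to 0.10 without AdWT replicate 1. Its 2 highest libraries were those in which the blood endothelial genes were high, whereas Lyve1 was lowest in AdKO replicate 1. Of 10 other lymphatic genes, 4 were tested, 1 higher and 3 lower by point estimate, none with an unadjusted p under 0.05, and their summed level was 11.9 to 19.1 CPM in AdWT and 12.2 to 14.2 CPM in AdKO. Ccl21a, the lymphatic chemokine, held at most 0.131 CPM, which is under 3 counts.

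The angiogenic factors had a class level that spanned 0.14 on the log2 scale over the 6 libraries, with each of the 3 genes highest in a different library. The highest-to-lowest ratio was 1.30 for Vegfb, 1.31 for Angptl2 and 1.71 for Vegfc. Vegfb (chr19:7056963-7062141, minus strand), a VEGF family ligand that binds Flt1, measured 16.6, 17.2 and 21.6 CPM in AdWT and 17.6, 16.6 and 17.7 CPM in AdKO, a log2 fold change of -0.09 (SE 0.132, interval -0.40 to 0.21). Angptl2 (chr2:33071589-33103237, plus strand), a secreted angiopoietin-like protein of adipose tissue, measured 189, 177 and 222 CPM in AdWT and 217, 232 and 183 CPM in AdKO, a log2 fold change of 0.10 (SE 0.117, interval -0.17 to 0.38). Vegfc (chr8:55162886-55271808, plus strand), the ligand of Flt4, measured 6.40, 4.89 and 4.08 CPM in AdWT and 4.53, 3.75 and 5.28 CPM in AdKO, a log2 fold change of -0.18 (SE 0.228, interval -0.71 to 0.35). In none of the 3 were AdWT replicate 1 and AdKO replicate 2 the 2 highest libraries.

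Vegfa, the principal angiogenic ligand, was not tested. Its row held 11, 4 and 4 counts in AdWT and 7, 12 and 6 in AdKO and did not pass the filter. The row of Angptl4, a PPARγ target secreted by adipocytes, had a single count in 1 of the 6 libraries, at 0.0658 CPM. For the ligands the table therefore covered Vegfb, Vegfc and Angptl2 of the 6 factors, with no value for either angiopoietin.

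Of the 4 classes, the mean level of receptors and Notch-ephrin genes spanned the most over the libraries, with Aplnr the most variable of its 4 genes. Aplnr, the apelin receptor of sprouting and venous endothelium, measured 117, 61.7 and 67.2 CPM in AdWT and 76.5, 156 and 56.8 CPM in AdKO, a highest-to-lowest ratio of 2.76. Efnb2, the arterial ephrin ligand, measured 61.1, 43.9 and 41.1 CPM in AdWT and 55.0, 68.5 and 43.6 CPM in AdKO. In both, the high libraries were again AdWT replicate 1 and AdKO replicate 2, and the log2 fold changes were 0.24 (SE 0.396) and 0.19 (SE 0.202).

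Dll4 (ENSMUSG00000027314.6, chr2:119151520-119161698, plus strand), the Notch ligand of tip cells and arteries, measured 94.3, 71.9 and 76.9 CPM in AdWT and 70.4, 85.0 and 58.6 CPM in AdKO, a log2 fold change of -0.18 (SE 0.156, interval -0.55 to 0.18). Notch1 (chr2:26313423-26372183, minus strand), its receptor, measured 204, 174 and 192 CPM in AdWT and 185, 182 and 144 CPM in AdKO, a log2 fold change of -0.16 (SE 0.113, interval -0.42 to 0.11). AdKO replicate 3 was the lowest library for both. Of 25 other VEGF, angiopoietin, apelin, Notch and ephrin genes, 15 were tested, 7 were higher and 8 lower by point estimate, and the 2 with an unadjusted p under 0.05, beside 5.73% of all rows, were both lower. They were Hey2, a Notch target of arterial endothelium (log2 fold change -0.63, SE 0.269), and the ephrin receptor Ephb3 (-0.62, SE 0.236), each with an adjusted p of 0.851 by edgeR. In this list Nrp1 alone had groups that did not overlap in CPM, with AdKO higher (526 to 574 against 471 to 504 CPM), beside 6.16% of all rows.

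Other endothelial genes outside the 38 gave a like account. Of 25 other pan-endothelial genes, 18 were tested, 16 higher and 2 lower by point estimate around a median of 0.08 on the log2 scale, beside 5105 higher and 4767 lower over all rows, and none was called. The 16 became 10 without AdWT replicate 2 and 9 without AdWT replicate 3 or AdKO replicate 2, with a median of -0.02 without AdWT replicate 3 and 0.33 without AdWT replicate 1, an alternative added after the data were seen. Thbd, the anticoagulant thrombomodulin, had a log2 fold change of 0.38 (SE 0.161) and Mcam, an adhesion molecule of endothelium and pericytes, one of -0.30 (SE 0.110), both with unadjusted p under 0.05, beside 5.73% of all rows, and an adjusted p of 0.851 by edgeR. Of 8 tested capillary genes, 5 were higher and 3 lower, none with an unadjusted p under 0.05. The capillary lipoprotein lipase anchor Gpihbp1 had a log2 fold change of -0.03 (SE 0.140).

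Since the libraries differed in endothelial signal, each member was also fitted with the mean log2 CPM of the 18 other pan-endothelial genes as a covariate in edgeR. This fit was added after the data were seen, and AdWT replicate 1 and AdKO replicate 2 held the 2 highest values of the covariate. The 18 genes weighed equally, although Eng held 10 to 21 counts and Procr 10 to 18. In CPM, Thbd and Tfpi lay wholly higher and Mcam wholly lower in AdKO, beside 6.16% and 5.72% of all rows. The covariate is therefore an imperfect measure of endothelial level. The covariate measured 5.34, 4.96 and 4.95 in AdWT and 5.20, 5.31 and 5.09 in AdKO on the log2 scale, a mean difference of 0.12 (AdKO minus AdWT, pooled SD 0.18, n = 3 per group). This offset by itself lowers ratios to the covariate in AdKO, and Dll4 went from -0.18 to -0.32 and Flt4 from -0.10 to -0.24 between the fits without and with it. No member was called, beside 0 of all 9872 rows, and adjusted p-values of the members ran from 0.936 to 0.997 by edgeR. At an unadjusted p under 0.05, 1 of 24 members was higher in AdKO, beside 2.55% of all rows, and 3 of 24 were lower, beside 2.47%. The count fell to 0 without AdKO replicate 3, and leaving out any other library gave 3 to 6. AdKO replicate 3 also held the highest mesothelium and epithelium marker sum, 47.9 CPM against 0.961 and 1.25 CPM in the other AdKO libraries, with 20.6 CPM in AdWT replicate 3, and the part of these cells was not tested.

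Plvap was the member higher at an unadjusted p under 0.05. Relative to the geometric mean of the 18 genes, it stood at 9.09, 8.67 and 7.91 in AdWT and 10.04, 9.94 and 10.6 in AdKO, so the groups did not overlap, and the covariate fit gave a log2 fold change of 0.23 (SE 0.0798, unadjusted p = 0.0226 and adjusted p = 0.936 by edgeR). Dll4 stood at 2.33, 2.32 and 2.51 times that mean in AdWT and 1.93, 2.15 and 1.73 times in AdKO, with a log2 fold change of -0.32 (SE 0.103, unadjusted p = 0.0165 by edgeR). Flt4 stood at 1.64, 1.47 and 1.55 times in AdWT and 1.28, 1.44 and 1.33 times in AdKO, with a log2 fold change of -0.24 (SE 0.0820). Nos3 stood at 6.13, 7.70 and 6.05 times in AdWT and 5.24, 5.75 and 5.04 times in AdKO, with a log2 fold change of -0.29 (SE 0.122). In each of these genes every AdKO ratio lay on 1 side of every AdWT ratio, as was also so for Vwf, with AdKO above. Across the 6 covariate fits that drop 1 library, log2 fold changes ran from 0.17 to 0.39 for Plvap, -0.67 to -0.22 for Dll4, -0.29 to -0.20 for Flt4 and -0.61 to -0.21 for Nos3. The unadjusted p by edgeR rose to 0.122 for Plvap, 0.0902 for Dll4, 0.188 for Flt4 and 0.191 for Nos3. These genes were picked by their p in the same model and the fits share most libraries, so their kept signs are no independent support. Ratios did not overlap for 2 of 24 members with AdKO higher, beside 2.14% of all rows, and for 3 of 24 with AdKO lower, beside 4.21%.

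**Figure D4:**
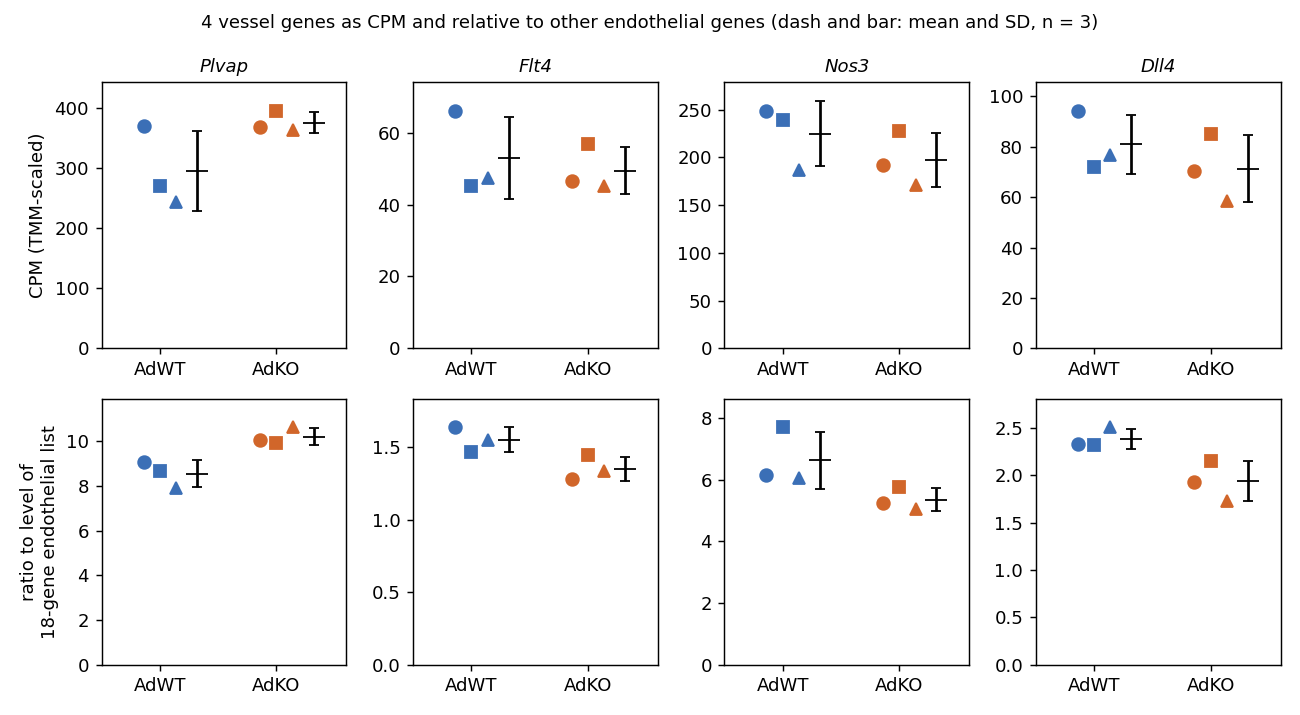
Plvap, Flt4, Nos3 and Dll4 in each library as TMM-scaled CPM (upper row) and as the ratio to the geometric mean level of 18 other endothelial genes (lower row), for AdWT (blue) and AdKO (orange); marker shapes are replicates 1 (circle), 2 (square) and 3 (triangle), and the dash and bar give the mean and SD of 3 libraries. In the upper row the groups overlap in every panel; in the lower row all AdKO ratios of Plvap lie above AdWT (9.94 to 10.6 against 7.91 to 9.09) and those of the other genes below.

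The other vessel signaling genes were read from the same fit. Of the 15 tested VEGF, angiopoietin, apelin, Notch and ephrin genes outside the 38, 11 were lower by point estimate. Of these, 4 had an unadjusted p under 0.05, beside 2.47% of all rows in that direction. They were Hey2 (log2 fold change -0.81, SE 0.208), Heyl, another Notch target (-0.35, SE 0.129), the Notch ligand Jag2 (-0.20, SE 0.0824) and Ephb3 (-0.75, SE 0.225), none called after adjustment. Other Notch genes of the list did not follow, with Dll1 at 0.21 (SE 0.121), Hes1 at 0.016 (SE 0.0902) and Hey1 at -0.044 (SE 0.180). The offset of the covariate by itself lowers AdKO values here too. Fits with a library left out are not given for these genes. Among the 18 covariate genes themselves, Gpr116, an adhesion receptor of endothelium, had an unadjusted p under 0.05 (-0.26, SE 0.103). Notch1 itself had a log2 fold change of -0.23 in this fit, with an unadjusted p of 0.0646 by edgeR.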

How the data were processed

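Libraries from whole iWAT (KAPA Stranded RNA-Seq Kit, Illumina HiSeq) were aligned by the authors with HISAT2 to mm9. The authors deposited 1 table of raw read counts per gene symbol for 3 AdWT and 3 AdKO mice, with no normalization. The counting tool and annotation are not given in the sources used here. Here, rows were filtered with filterByExpr, scaled by TMM and tested with edgeR 4.0.16 (glmQLFit, glmQLFTest, Benjamini-Hochberg over 9872 rows, R 4.3.3). DESeq2 1.42.0 was an alternative. Intervals are 95%, and library sizes were 14470542 to 17882713 counts. Levels are CPM or log2(CPM + 0.5). Per-length levels and coordinates used GENCODE vM1, and promoters came from RefSeq. The fit was tested on simulated data. Replicate numbers were not treated as pairs. The labels do not say whether the libraries of a group are separate animals, but the study calls them biological replicates. The members and lists were chosen with earlier results of these data known. Described in full were the key genes of each class and every gene with an unadjusted p under 0.05 or groups that do not overlap. Of the other lists, counts were given, plus genes with an unadjusted p under 0.05 between the groups. Others named were chosen after their values were seen.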

Additional observations from a re-analysis of the deposited data

How the results depend on the processing

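None of the 24 tested members was called under any setting tried, though DESeq2 gave no adjusted p for Emcn and Vwf. Rows called over the whole table, 0 in edgeR, were 27 of 19554 with DESeq2, 1 when rows needed only 1 count in some library, and 0 to 1 with each library left out (1 without AdKO replicate 3). Members with an unadjusted p under 0.05, 1 in edgeR with all libraries (Plvap), were 0 with RLE scaling, 0 with library size only, 0 with rows of a symbol summed and 4 with the endothelial covariate, which was added after the data were seen. Leaving out 1 library gave 0 to 4: Plvap, Mmrn2, Egfl7 and Vwf without AdWT replicate 1 (where 1208 of 10204 rows also had one, against 566 of 9872 with all libraries), Nos3 without AdWT replicate 3, and none otherwise. With the covariate, leaving out 1 library gave 0 to 6, the 0 without AdKO replicate 3, and RLE scaling and library size only gave 4 and 3. The median log2 fold change of the angiogenic factors was -0.09, -0.024 with the covariate, and -0.15 to 0.025 with 1 library left out, positive without AdWT replicate 1 or 3. The same ranges were -0.019 to 0.28 for the pan-endothelial median (negative without AdWT replicate 3; -0.050 with the covariate), -0.17 to 0.038 for the lymphatic median (positive without AdKO replicate 1) and -0.26 to 0.17 for the vessel receptor and Notch-ephrin median (-0.19 with the covariate). The cause of these shifts was not tested.

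Point estimates of 124 of 144 member values kept their direction and side of the threshold with 1 library left out, and those of 180 of 191 under the other settings. Turned signs were 0.030 for Cdh5 and 0.0015 for Lyve1 with library size only, -0.00057 for Ptprb with DESeq2, and, with the covariate, -0.050 for Flt1, -0.074 for Tie1, -0.023 for Cldn5, -0.19 for Sox18, -0.015 for Mmrn2, 0.037 for Lyve1 and -0.16 for Aplnr. With 1 library left out, log2 fold changes ran from -0.14 to 0.17 for Cdh5, -0.033 to 0.28 for Flt1, -0.22 to 0.10 for Flt4, -0.052 to 0.29 for Tie1, -0.61 to 0.053 for Emcn, -0.20 to 0.10 for Sox17, -0.29 to 0.35 for Sox18, -0.039 to 0.10 for Ptprb, -0.20 to 0.13 for Lyve1, -0.17 to 0.025 for Vegfb, -0.33 to 0.011 for Vegfc and -0.30 to 0.58 for Aplnr. That of Plvap stayed between 0.22 and 0.55, and its adjusted p ran from 0.392 to 1 over all settings, those combined with the covariate included.

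Same-numbered replicates had deviations that correlated at -0.10, -0.12 and 0.35 for numbers 1, 2 and 3; since they were positive for number 3 alone, the numbers were not taken as pairs. With the replicate block, 0 rows were called, 1 member had an unadjusted p under 0.05, and Cdh5 had a log2 fold change of 0.00021.

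The rows of Kdr, Esam, Vegfa, Notch4, Ephb4, Emcn, Egfl7 and Vwf held few or no counts, which limits their precision; the cause was not tested. Groups of 3 mice cannot give an exact permutation p under 0.1.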
